A study of Mus musculus with 10 samples.

Results

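Yap1, Wwtr1, the 4 Tead genes, Lats1, Lats2, Amotl2 and Vgll3 are 10 genes of the Hippo pathway and its transcriptional output. They were taken by name from a table of 46095 gene symbols, and all 10 were expressed above the filter on low counts that left 15335 genes. Of the 29289 merged regions of open chromatin in the study, 31 lay within 5000 bp of the spans of these genes. The cells were C3H10 T1/2, a line of mesenchymal, fibroblast-like cells derived from mouse embryos. In the RNA-seq set, 3 libraries came from cells under cyclic mechanical strain and 3 from static control cells. The strain was a 0.5 Hz sinusoid of 10% elongation applied for 8 h on each of 3 days on flexible collagen-coated plates, and the labels list the mouse strain of these libraries as C57BL/6. In the ATAC-seq set, which maps open chromatin by transposase insertion, 2 libraries came from cells whose gene for the force-gated channel Piezo1 was knocked out with CRISPR/Cas9, and 2 from GFP control cells. No strain is given for the ATAC-seq cells, and whether the knockout is 1 clone is not given in the sources used here. The title of the series ties mechanical force and estrogen to PIEZO1 in alveolar bone, and the strain experiment was made to look for sensors of occlusal force.

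YAP (gene Yap1) and TAZ (gene Wwtr1) are coactivators that carry mechanical and cell-contact signals to the nucleus, where they act through the DNA-binding TEAD factors. The kinases LATS1 and LATS2 phosphorylate both and hold them in the cytoplasm, the angiomotin-like protein AMOTL2 binds and sequesters YAP, and VGLL3 competes with YAP and TAZ for TEADs. LATS2 and AMOTL2 are also well-known YAP/TAZ target genes, so that both are used as readouts as well as regulators. Much of the control of the pathway acts on protein phosphorylation and localisation, which neither assay measures.

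Library totals were 37233101 to 41024689 counts under strain and 36150738 to 38491897 in controls. Among 12 mesenchymal markers, 11 were at 1 CPM or more in all 6 libraries, while Thy1 had 1 count summed over the strain libraries and 3 over the controls. CPM is the normalised read count relative to the TMM-scaled library total. The mesenchymal markers summed to 61030 to 72630 CPM under strain and 82440 to 91240 CPM in controls, and 6 of the 11 tested fell, against 7.39% of all genes tested. Epithelial markers summed to 3.00 to 4.53 CPM under strain and 8.45 to 9.75 CPM in controls, endothelial markers to 3.96 to 6.40 CPM under strain and 3.07 to 4.05 CPM in controls, and leukocyte markers to 14.4 to 16.5 CPM under strain and 12.2 to 15.4 CPM in controls. No counts were found for Epcam and Cldn4, Cdh5 and Emcn, or Ptprc and Cd3e, while the epithelial cadherin gene Cdh1, Vwf and Lyz2 made up most of the sums of their lists in controls. Cdh1 fell to 1.11, 2.62 and 2.35 CPM under strain, against 8.44, 8.03 and 6.23 CPM in controls (log2 fold change −1.91, edgeR adjusted p = 0.00211). The part of these marker differences in the results below was not tested. Strain replicate 1 and control replicate 3 stood apart from the other libraries of their groups, since their counts differed from those of the others by a chi-square of 34.7 to 59.6 for each degree of freedom, compared with 15.7 between strain replicates 2 and 3 and 9.19 between control replicates 1 and 2. Nothing in the labels ties the replicates to separate cultures. The p-values below therefore weigh differences against the spread of these 3 libraries a group, and that spread may be technical.

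The core TEAD recognition hexamer is GGAATG, or CATTCC on the other strand. Promoter windows from 250 bases before to 50 bases after an annotated start were available from RefSeq on build GRCm38.p6 for 8 of the 10 genes, with none for Tead1 and Tead4. At least 1 hexamer was found in a window of 6 of these 8 genes (75.0%), against 16.6% of 27025 genes with such windows, 14.5% of the 10520 of them tested in the RNA-seq and 14.7% of all 32851 windows. Tead3 had 3 windows and Wwtr1 and Lats2 had 2 each, so these genes had more sequence to match. By the first listed window of each gene alone, the shares were 75.0% of the 8 genes, 14.6% of all genes with windows and 12.0% of those tested. Tead2 and Lats1 had no match in these letters. For genes with several windows 1 with a match is shown. The windows with a match are shown because they carry the candidate TEAD sites of the pathway's own genes, 5′ to 3′ on the strand of the gene, with every hexamer in capitals.
Yap1: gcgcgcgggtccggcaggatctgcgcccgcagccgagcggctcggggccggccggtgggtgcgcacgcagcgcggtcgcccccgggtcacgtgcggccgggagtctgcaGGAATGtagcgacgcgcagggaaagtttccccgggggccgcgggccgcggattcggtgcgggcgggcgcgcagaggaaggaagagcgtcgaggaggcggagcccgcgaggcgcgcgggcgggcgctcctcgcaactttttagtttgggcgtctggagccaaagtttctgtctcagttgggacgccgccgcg
Wwtr1: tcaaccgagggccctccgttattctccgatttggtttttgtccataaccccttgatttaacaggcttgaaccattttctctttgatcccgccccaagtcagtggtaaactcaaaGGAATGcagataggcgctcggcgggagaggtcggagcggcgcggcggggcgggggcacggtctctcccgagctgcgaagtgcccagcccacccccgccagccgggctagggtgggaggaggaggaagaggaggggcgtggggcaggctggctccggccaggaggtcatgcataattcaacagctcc
Tead3: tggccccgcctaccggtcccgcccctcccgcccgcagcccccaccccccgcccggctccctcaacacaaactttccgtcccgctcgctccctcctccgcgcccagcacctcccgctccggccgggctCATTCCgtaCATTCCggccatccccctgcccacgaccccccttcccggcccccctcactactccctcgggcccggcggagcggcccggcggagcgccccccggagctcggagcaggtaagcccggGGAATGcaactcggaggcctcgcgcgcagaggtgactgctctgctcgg
Lats2: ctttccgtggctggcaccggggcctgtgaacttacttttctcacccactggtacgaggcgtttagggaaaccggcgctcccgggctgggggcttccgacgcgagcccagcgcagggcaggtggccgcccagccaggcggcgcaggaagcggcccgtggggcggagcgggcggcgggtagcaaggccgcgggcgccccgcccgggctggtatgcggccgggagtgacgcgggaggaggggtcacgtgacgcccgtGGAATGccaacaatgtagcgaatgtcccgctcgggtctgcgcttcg
Amotl2: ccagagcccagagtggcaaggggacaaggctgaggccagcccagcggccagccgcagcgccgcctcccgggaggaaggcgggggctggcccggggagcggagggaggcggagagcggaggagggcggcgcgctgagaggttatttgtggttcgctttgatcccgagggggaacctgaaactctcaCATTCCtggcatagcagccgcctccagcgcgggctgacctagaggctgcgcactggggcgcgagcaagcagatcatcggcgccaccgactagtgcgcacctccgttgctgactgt
Vgll3: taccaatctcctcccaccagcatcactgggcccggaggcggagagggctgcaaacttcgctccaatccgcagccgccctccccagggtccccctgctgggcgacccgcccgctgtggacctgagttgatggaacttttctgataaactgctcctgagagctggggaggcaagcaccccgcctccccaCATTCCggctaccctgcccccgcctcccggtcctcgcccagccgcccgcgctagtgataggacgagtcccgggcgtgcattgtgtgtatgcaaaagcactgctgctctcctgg

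Counting the annotated start as 0, the hexamer began at −141 in Yap1 (chr9:8004547-8004846, minus strand), −136 in Wwtr1 (chr3:57575861-57576160, minus strand), −65 in Amotl2 (chr9:102717554-102717853, plus strand) and −63 in Vgll3 (chr16:65814939-65815238, plus strand). In Lats2 (chr14:57746074-57746373, minus strand) it began at 4, just past the start. The Tead3 window shown (chr17:28350551-28350850, minus strand) held 3 hexamers, at −123, −114 and 2. Another Tead3 window, not shown (chr17:28350756-28351055), held a further one at −182 from its own start. Those at −123, −114, −65 and −63 read CATTCC and the others GGAATG. A match describes these letters and does not show that a TEAD factor binds there. The ATAC-seq peaks over these starts are given after the mRNA levels.

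The first comparison asked whether cyclic strain was accompanied by altered mRNA levels of the pathway genes. None of the 10 genes passed an adjusted p of 0.05 in edgeR's quasi-likelihood test, against 13.3% of all 15335 genes tested. By direction, 0 of the 10 were called higher, against 5.94% of all genes, and 0 lower, against 7.39%. At an unadjusted p under 0.05 there was 1 of the 10, Lats2, against 4544 of all 15335 genes tested. The DESeq2 test and limma-voom each called 0 of the 10. Over all genes, the DESeq2 test called 1291 higher and 1491 lower, and limma-voom 934 higher and 1147 lower. The median log2 fold change of strain over control was 0.13 for the 10 genes and 0.0049 for all genes tested, with 7 of the 10 above 0. Only Lats2 had strain and control libraries that did not overlap, a state found in 35.3% of all genes tested. In these bulk samples, fewer cells that express a gene and less RNA per cell cannot be told apart.

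**Figure D1:**
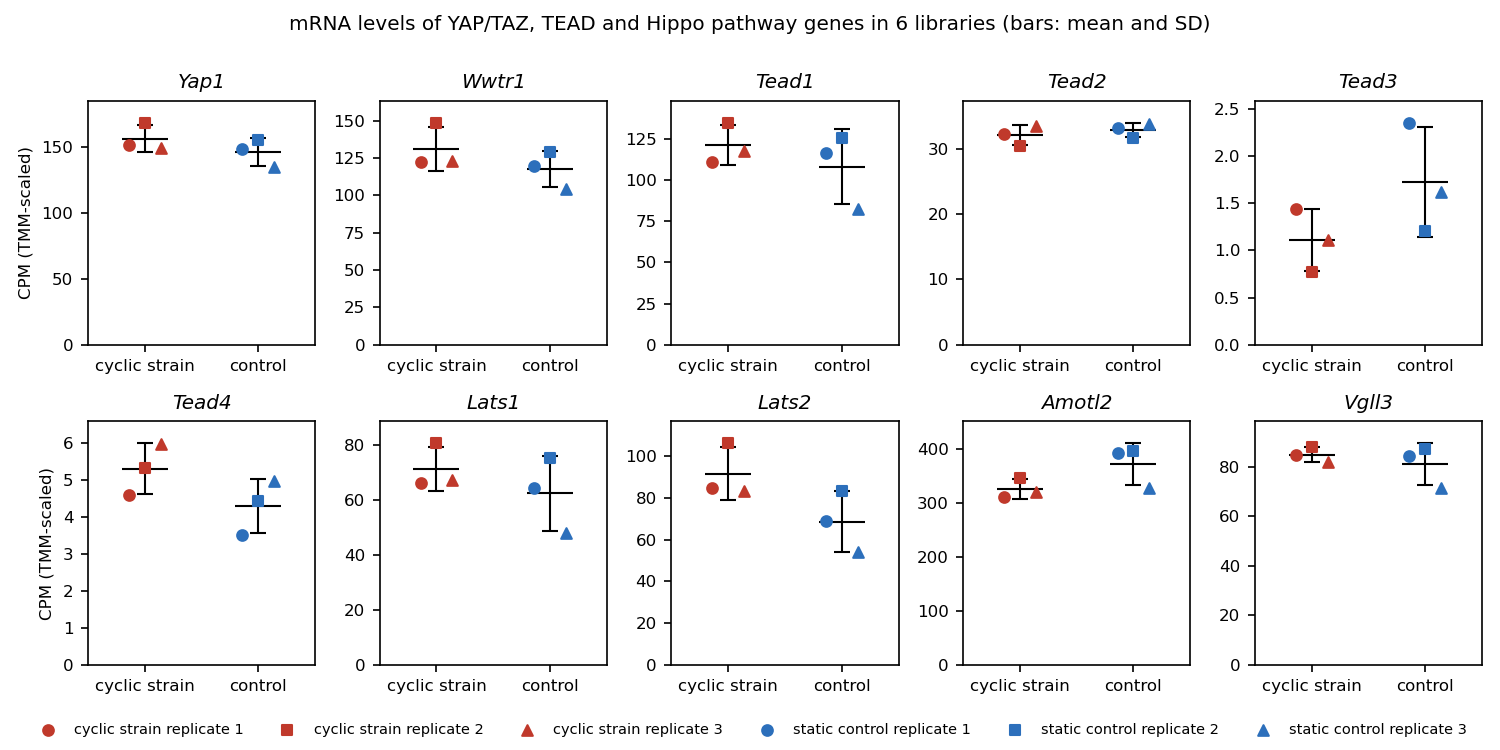
Normalised read counts in CPM (TMM-scaled, vertical axes starting at 0) of the 10 genes in each library, cyclic strain on the left of each panel and static control on the right, with the mean and SD of 3 libraries as bars. The groups overlap in every gene but Lats2, and control replicate 3 is the lowest control in 7 of the 10 panels.

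The coactivator Yap1 (gene span chr9:7931999-8004638) had 152, 168 and 149 CPM in strain replicates 1 to 3, against 149, 156 and 135 CPM in control replicates 1 to 3. The ranges overlapped, with the highest value in strain replicate 2 and the lowest in control replicate 3. Its log2 fold change was 0.09 (SE 0.10, adjusted p = 0.567, edgeR), and the 95% interval of the fold ran from 0.915 to 1.25. Wwtr1, which encodes TAZ (chr3:57455644-57575910), had 123, 148 and 123 CPM under strain and 120, 129 and 105 CPM in controls. These also overlapped, and the log2 fold change was 0.16 (SE 0.12, adjusted p = 0.401, edgeR), with a 95% interval of the fold from 0.932 to 1.34. The ratio of Yap1 to Wwtr1 counts within a library, which no scaling changes, was 0.309, 0.181 and 0.277 on the log2 scale under strain and 0.313, 0.274 and 0.366 in controls. The groups overlapped, and the difference of their means was −0.062 on the log2 scale. An exact permutation test over 20 assignments of the libraries gave a two-sided p of 0.3, but its smallest possible p is 0.1, so it could not have passed 0.05.

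Tead1 (chr7:112679356-112906784) encodes a broadly expressed TEAD factor. It had 111, 135 and 118 CPM under strain, and 117, 126 and 82.4 CPM in controls. Control replicate 3 lay well below the other 5 libraries. The log2 fold change of 0.16 (SE 0.15, adjusted p = 0.507, edgeR) became 0.0008 without that library. Tead2 (chr7:45215792-45233468), a TEAD gene prominent in early embryos, had 32.4, 30.4 and 33.5 CPM under strain and 33.2, 31.8 and 33.8 CPM in controls, with overlapping ranges. Its log2 fold change was −0.037 (SE 0.10, adjusted p = 0.840, edgeR) and 0.014 with library size alone as scaling, and the 95% interval of the fold ran from 0.836 to 1.14.

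Tead4 (chr6:128227143-128300813), whose product is known for its role in trophectoderm and muscle precursors, had 4.61, 5.35 and 5.99 CPM under strain and 3.53, 4.44 and 4.98 CPM in controls. The groups overlapped by 1 library of each, and the log2 fold change was 0.30 (SE 0.19, adjusted p = 0.324, edgeR). Tead3 (chr17:28331671-28350805) had the fewest counts of the 10, at 60, 29 and 46 reads under strain against 90, 43 and 57 reads in controls. These correspond to 1.44, 0.775 and 1.12 CPM under strain and 2.35, 1.21 and 1.62 CPM in controls, which overlap. The log2 fold change of −0.63 (SE 0.34, adjusted p = 0.245, edgeR) had a 95% interval of the fold from 0.380 to 1.09, the widest of the 10 on the log2 scale. Transcript lengths were not used here, so levels were not compared between Tead genes. Of the summed Tead counts, Tead1 took 74.3%, 78.7% and 74.4% under strain and 74.9%, 77.1% and 67.1% in controls, and Tead4 took 3.08%, 3.12% and 3.78% under strain and 2.27%, 2.72% and 4.05% in controls. The shares of all 4 Tead genes overlapped between the groups. Exact permutation tests gave two-sided p of 0.2 to 0.6, and 0.6 for each after Benjamini-Hochberg adjustment over the 4, but with 0.1 as the smallest p possible no share could have passed 0.05.

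Of the inhibitory kinases, Lats2 (chr14:57689662-57746212) came closest to the threshold. It had 84.9, 106 and 83.6 CPM in strain replicates 1 to 3, against 68.9, 83.2 and 54.0 CPM in control replicates 1 to 3. Every strain library was above every control library, by a margin of under 1 CPM between strain replicate 3 and control replicate 2. Its level averaged 91.5 ± 12.7 CPM under strain and 68.7 ± 14.6 CPM in controls (SD, n = 3 each), a 1.33-fold difference (log2 fold change 0.41, SE 0.16, edgeR adjusted p = 0.109). The test was passed without control replicate 2 (log2 fold change 0.57, adjusted p = 0.0280) and with no filter on low counts (0.41, adjusted p = 0.0156), and the log2 fold change was 0.27 without control replicate 3. Lats1 (chr10:7681200-7716461), the paralogous kinase, had 66.3, 80.7 and 67.3 CPM under strain and 64.4, 75.3 and 48.1 CPM in controls. These ranges overlapped, and the log2 fold change of 0.19 (SE 0.16, adjusted p = 0.449, edgeR) was 0.032 without control replicate 3.

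The balance of the 2 LATS mRNAs within a library is not touched by scaling. The log2 ratio of Lats2 to Lats1 counts was 0.357, 0.396 and 0.312 under strain, against 0.0974, 0.144 and 0.167 in controls. All 3 strain libraries lay above all 3 controls, and neither control replicate 3 nor strain replicate 1 stood apart on this ratio. The mean was 0.355 ± 0.0418 under strain and 0.136 ± 0.0357 in controls (SD, n = 3 each), and the difference of 0.22 lay between 0.20 and 0.24 with any 1 library left out. This ratio was chosen after its values were seen, so no test is given and the separation of the groups is no support of its own. How often other gene pairs separate in this way was not counted. The span of Lats2 overlaps the gene model Gm52140 by 7626 bp and that of Lats1 overlaps Pcmt1 by 138 bp, and reads from overlapping genes cannot be told apart where counting takes no account of strand.

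**Figure D2:**
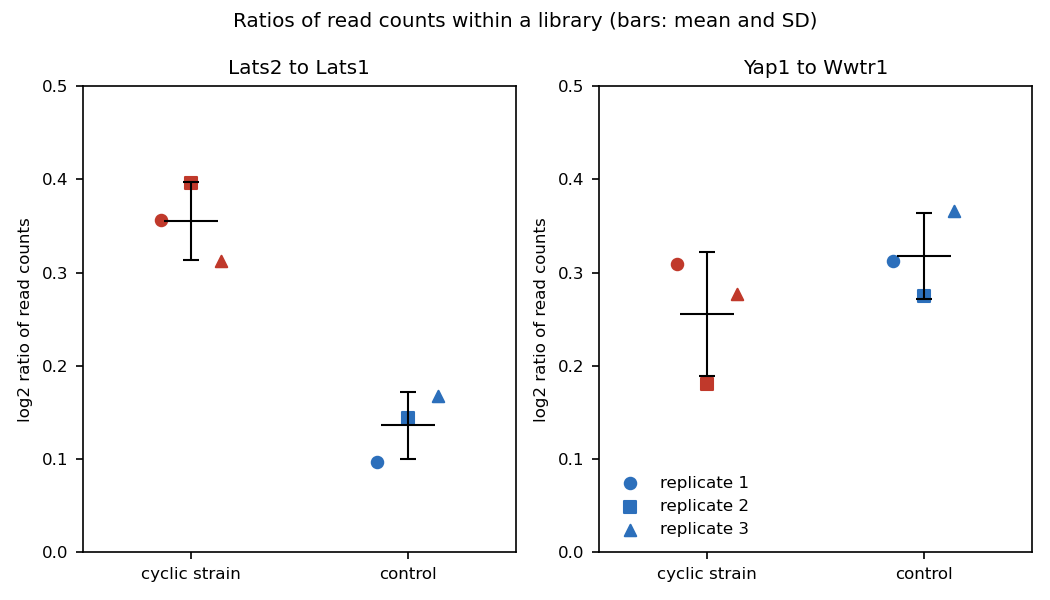
Log2 ratio of read counts of Lats2 to Lats1 (left) and of Yap1 to Wwtr1 (right) in each library, cyclic strain left of static control in each panel, with the mean and SD of 3 libraries as bars. The Lats2 to Lats1 ratio is 0.312 or more in every strain library and 0.167 or less in every control, while the Yap1 to Wwtr1 ratios overlap. The Lats2 to Lats1 ratio was chosen after its values were seen, and the Yap1 to Wwtr1 ratio was planned.

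Amotl2 and Vgll3 act on YAP and on the TEADs. Amotl2 (chr9:102717091-102733418) had 310, 346 and 320 CPM in strain replicates 1 to 3 and 391, 395 and 327 CPM in control replicates 1 to 3. Control replicate 3 fell among the strain libraries, while the other controls were above them all. Its log2 fold change was −0.19 (SE 0.11, adjusted p = 0.271, edgeR) and −0.27 without control replicate 3 (adjusted p = 0.0876). Vgll3 (chr16:65815189-65866368) had 84.7, 88.0 and 81.9 CPM under strain and 84.5, 87.1 and 71.5 CPM in controls. The log2 fold change of 0.067 (SE 0.11, adjusted p = 0.716, edgeR) was −0.016 without control replicate 3, and the 95% interval of the fold ran from 0.891 to 1.23. Lats2 and Amotl2, which belong to the same target signature, thus had fold changes of opposite sign, neither past the threshold.

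Across the 10 genes, 2 libraries moved with these small differences, and their part in them was not tested beyond leaving them out. Control replicate 3 was the lowest control for 7 of the 10, against 41.2% of all genes tested, and strain replicate 2 was the highest strain library for 7, against 32.8%. The median log2 level of control replicate 3 relative to the mean of the other controls was −0.26 for the 10 genes and −0.0025 for all genes tested. The same library was the lowest control for 12 of 17 kinase cassette genes, 17 of 21 upstream junction and polarity genes, 7 of 16 LIM and STRIPAK genes, 9 of 10 other TEAD cofactors and 13 of 20 targets outside the 10 genes. Without strain replicate 2, 0 of the 10 genes were called. The log2 fold change was then 0.034 for Yap1, 0.056 for Wwtr1, 0.090 for Lats1 and 0.29 for Lats2, each smaller than with all libraries. That of Amotl2 was −0.24, larger in size than with all libraries. Control replicate 3 and strain replicate 1, which stood apart within their groups, were also left out together. Of the 10 genes 0 were then called, while 1512 of all genes rose and 1614 fell. The lowest edgeR adjusted p among the 10 were then 0.0529 for Amotl2 (log2 fold change −0.24), 0.0894 for Tead4 (0.51) and 0.0901 for Lats2 (0.32).

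The rest of the pathway was read from lists of genes outside the 10. Of 17 kinases and adaptors of the Hippo cassette, 0 rose and 1 fell, a called share of 5.88% against 13.3% of all genes tested, with a median log2 fold change of 0.16 against 0.0049. The 1 that fell was Tnik, a germinal centre kinase related to the MAP4Ks. It had 1.44, 2.35 and 1.12 CPM under strain and 4.81, 4.07 and 3.30 CPM in controls, without overlap (log2 fold change −1.32, SE 0.29, edgeR adjusted p = 0.0159). The call was lost without strain replicate 3 or control replicate 1 (adjusted p up to 0.0687). Of 26 upstream junction and polarity genes 21 were tested, and of these 1 rose and 0 fell (4.76%, again against 13.3%), with a median of 0.16. That gene was Fat1, an atypical cadherin, at 452, 763 and 618 CPM under strain and 372, 457 and 242 CPM in controls, which overlap (log2 fold change 0.78, SE 0.23, edgeR adjusted p = 0.0499). It was lost without strain replicate 2 or 3 or control replicate 1 or 3 (adjusted p up to 0.167). Of 16 LIM and STRIPAK genes and of 10 other TEAD cofactors, edgeR called 0, with medians of 0.046 and 0.13. In each of these 2 lists, 2 genes were at an unadjusted edgeR p under 0.05, against 4544 of all 15335 genes tested. By the DESeq2 test 5 genes rose and 2 fell over the 4 lists together, against 1 and 1 by edgeR. Over all genes, the DESeq2 test called 1291 higher and 1491 lower, against 911 and 1134 by edgeR.

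The transcriptional output was read from a published YAP/TAZ target signature of 22 genes, of which 20 lie outside the 10 genes above. Like the other lists, it was chosen with earlier results of these data known. Of these 20, 4 rose and 4 fell, a called share of 40% against 13.3% of all genes tested, and the median log2 fold change was −0.028, against 0.0049 over all genes. This share was not kept when strain replicate 3 or control replicate 1 was left out, as given below. The size of the changes, irrespective of sign, had a median of 0.45 on the log2 scale, against 0.24 over all genes tested. The genes that rose were Crim1, Myof, Axl and Igfbp3, and those that fell were Nt5e, Ccn1, Ccdc80 and Tgfb2. All 8 had libraries without overlap between the groups, a state found in 35.3% of all genes tested. As the 8 were picked by a test on the same libraries, this is no separate support.

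Ccn1 encodes CYR61, a matricellular protein and one of the most used YAP readouts, and is listed in the table under its older symbol. It had 459, 872 and 801 CPM under strain and 1108, 1176 and 1190 CPM in controls (log2 fold change −0.70, SE 0.20, edgeR adjusted p = 0.0409). Strain replicate 1 was far below the other strain libraries. Without it the log2 fold change was −0.47, and the gene was still called (edgeR adjusted p = 0.0199). Calls were lost without strain replicate 3 or any 1 control (adjusted p up to 0.0882). Ccn2, which encodes CTGF, had 39.6, 92.6 and 91.9 CPM under strain and 96.8, 119 and 104 CPM in controls, with the same library lowest (log2 fold change −0.51, SE 0.26, edgeR adjusted p = 0.212), and −0.21 without strain replicate 1. Ankrd1, a nuclear ankyrin-repeat protein of stressed muscle, had 78.0, 102 and 122 CPM under strain and 121, 113 and 127 CPM in controls, which overlap (log2 fold change −0.26, SE 0.15, edgeR adjusted p = 0.273).

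Crim1, a membrane protein that binds BMPs, rose to 99.8, 127 and 118 CPM under strain, against 67.0, 85.6 and 45.1 CPM in controls (log2 fold change 0.80, SE 0.20, edgeR adjusted p = 0.0247). The membrane repair protein gene Myof rose 1.49-fold, the receptor tyrosine kinase gene Axl 1.42-fold and Igfbp3, a carrier of insulin-like growth factors, 1.37-fold. These calls were each lost without strain replicate 2 or 3 or control replicate 1, so that the count of genes that rose was then 0, with adjusted p up to 0.0843 for Crim1, 0.0839 for Myof, 0.109 for Axl and 0.101 for Igfbp3. The call of Axl was also lost without strain replicate 1. Ccdc80, a secreted matrix protein, fell to 215 ± 17.6 CPM under strain, against 326 ± 4.27 CPM in controls (SD, n = 3 each; log2 fold change −0.60, SE 0.098, edgeR adjusted p = 0.00326), and was called with any 1 library left out. The growth factor gene Tgfb2 fell by 0.54 and the ectonucleotidase gene Nt5e by 0.77 on the log2 scale. Without strain replicate 3 or control replicate 1 neither was called, nor was Nt5e without control replicate 2. The adjusted p then reached 0.0700 for Tgfb2 and 0.113 for Nt5e. The count of genes that fell was 1 without strain replicate 3 or control replicate 1 and 2 without control replicate 2. Over all genes tested, 404 rose and 577 fell without strain replicate 3, and 369 rose and 610 fell without control replicate 1. With all libraries these were 911 and 1134.

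**Figure D3:**
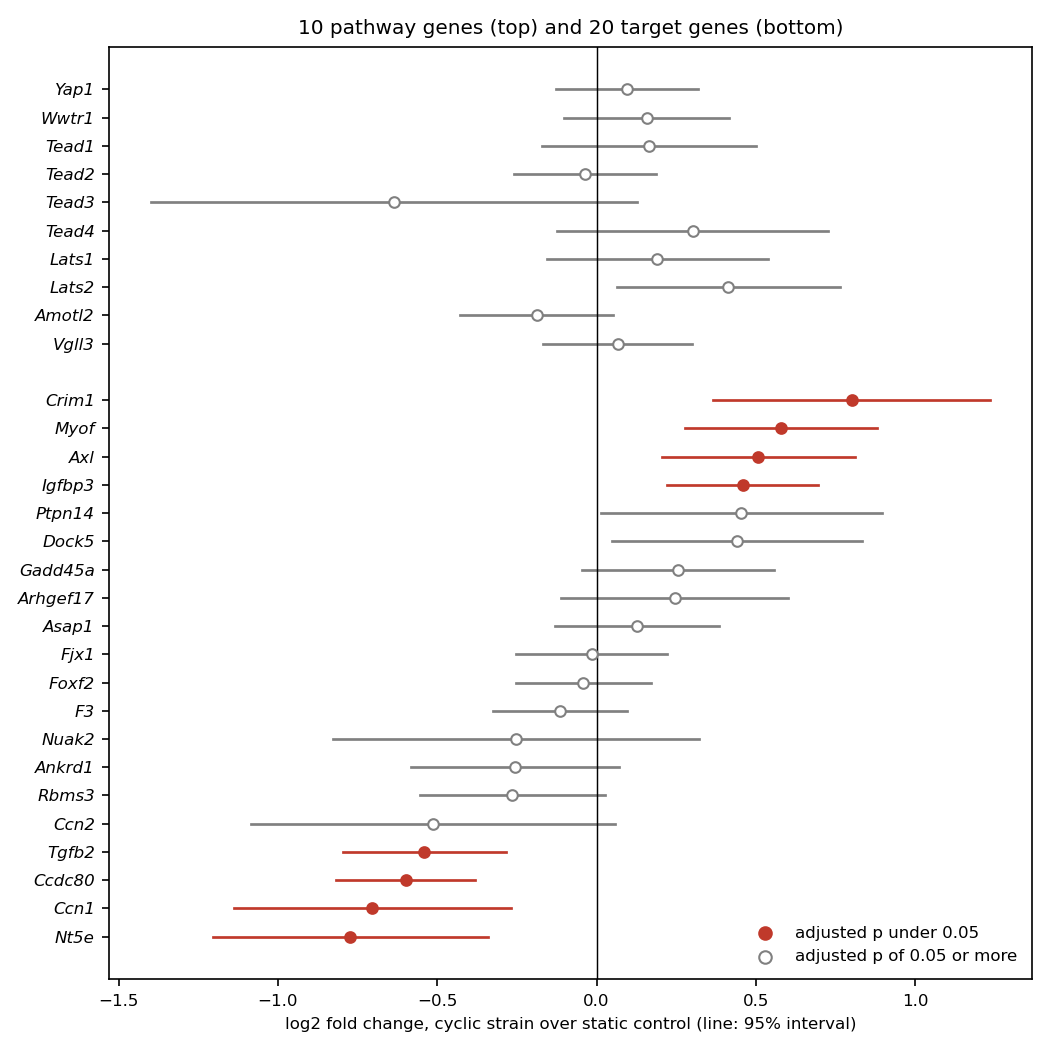
Log2 fold change of cyclic strain over static control (horizontal axis) with its 95% interval for the 10 pathway genes at the top and the 20 other genes of the target signature below, ordered by fold change. Filled red points passed an adjusted p of 0.05, which 0 of the 10 pathway genes and 8 of the 20 targets did, 4 in each direction.

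Of the 20 outside targets, 13 had a promoter window, and 5 of the 13 held the TEAD hexamer (38.5%, against 14.5% of genes tested). Among the called targets it was found in Crim1 and Axl, which rose, and Ccn1, which fell, and not in Myof, Igfbp3, Nt5e or Tgfb2, while Ccdc80 had no window. The windows of Crim1 and Ccn1 are shown as 1 example in each direction. In Ccn1 (chr3:145649936-145650235, minus strand) it began at −103, and in Crim1 (chr17:78199998-78200297, plus strand) at −79.
Ccn1: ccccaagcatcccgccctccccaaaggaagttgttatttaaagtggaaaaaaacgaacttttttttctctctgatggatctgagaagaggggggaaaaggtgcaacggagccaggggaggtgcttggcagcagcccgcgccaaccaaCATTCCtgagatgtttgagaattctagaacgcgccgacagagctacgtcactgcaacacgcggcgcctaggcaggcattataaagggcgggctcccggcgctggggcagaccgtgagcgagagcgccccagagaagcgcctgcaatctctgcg
Crim1: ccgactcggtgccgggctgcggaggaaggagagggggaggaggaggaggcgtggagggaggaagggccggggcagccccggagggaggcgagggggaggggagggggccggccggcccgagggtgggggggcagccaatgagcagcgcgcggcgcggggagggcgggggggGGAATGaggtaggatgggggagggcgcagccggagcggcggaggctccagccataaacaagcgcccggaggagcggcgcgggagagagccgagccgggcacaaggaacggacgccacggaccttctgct

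The second comparison set open chromatin at the 10 genes in Piezo1 knockout cells beside that in GFP control cells. Only peak lists were used, so each statement is about a peak being listed, and no test was made. The knockout lists held 15980 and 13610 peaks and the GFP lists 15978 and 26652, and 18 and 15 peaks in knockout and 20 and 30 in GFP libraries lay within 5000 bp of the 10 genes. GFP replicate 2 had the most peaks in both counts, and the read depth is unknown. Of the 31 merged regions near the genes, 12 had a peak in all 4 libraries, 2 in both knockout libraries and neither GFP library, and 3 in both GFP libraries and neither knockout library. Over all 29289 merged regions these 3 kinds made up 26.4%, 1.57% and 10.6%. Within the 31, the shares were 38.7%, 6.45% and 9.68%. Fold enrichments are the authors' values for each peak over the local background of its own library.

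The starts of most of the genes were open in all 4 libraries. A peak lay within 1000 bp of an annotated start in all 4 libraries for 5 of the 8 genes with a start in the promoter table, which are Wwtr1, Lats1, Lats2, Amotl2 and Vgll3, against 45.0% of 10512 other genes tested. The peak at the Amotl2 start (chr9:102717286-102718172, merged region) had fold enrichments of 6.79 and 6.38 in knockout libraries and 6.87 and 6.71 in GFP libraries. It stood at the 82.4 and 79.9 percentiles in knockout and the 88.5 and 77.6 percentiles in GFP lists. The Vgll3 start (chr16:65814759-65815557) had 6.30 and 7.60 in knockout and 5.61 and 6.45 in GFP libraries. The Wwtr1 start (chr3:57575496-57576398) had 5.11 and 5.49 in knockout and 5.51 and 6.35 in GFP libraries. These 3 regions cover the hexamers of the promoter windows shown above.

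At that Wwtr1 start both knockout enrichments were below both GFP enrichments, with 5.49 against 5.51 at the closest. The same order was found at the starts of the LATS genes, and not at those of Amotl2 and Vgll3. How many of all regions with peaks in all 4 libraries had this order was not counted. The Lats2 start (chr14:57745811-57746520) had 5.17 and 4.01 in knockout and 6.54 and 5.61 in GFP libraries, at the 48.5 and 12.4 percentiles of the knockout lists and the 84.7 and 58.7 percentiles of the GFP lists. The Lats1 start (chr10:7680861-7681835) had 4.42 and 3.72 in knockout and 5.00 and 6.87 in GFP libraries, at the 21.7 and 5.6 percentiles and the 48.4 and 79.6 percentiles. Enrichments of separate lists are not on a common scale, and ranks in lists of different length show no change. The Lats1 start region also covers the end of the Pcmt1 span, and the knockout replicate 2 peak there (chr10:7680861-7681240) does not overlap the knockout replicate 1 peak (chr10:7681300-7681499). With peaks of −log10 q of at least 5 alone, the Lats1 region had peaks in both GFP libraries and neither knockout library. A region inside Lats2 (chr14:57707012-57707765) also had peaks in all 4 libraries, at 4.87 and 4.70 in knockout and 4.02 and 5.24 in GFP libraries, with no such order.

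Yap1 and Tead2 had the fewest listed peaks. At the Yap1 start (chr9:8004292-8005007), knockout replicate 2 (5.71) and GFP replicate 2 (4.92) had peaks and the other library of each group had none. Tead2 had a single peak, 84 bp past its start, in GFP replicate 2 (4.12). For Tead3, a peak 85 bp from the nearest of its 3 annotated starts (chr17:28349950-28350261) was listed in both GFP libraries (3.94 and 3.71) and in neither knockout library, a state of 3.1% of other genes' starts. These were among the weakest peaks of their lists, at the 9.9 and 5.6 percentiles, though both held at a −log10 q of at least 5. The strong region counted near Tead3 in all 4 libraries (chr17:28327927-28328825) lies beyond its far end and overlaps the ribosomal protein gene Rpl10a, with 5.78 and 6.64 in knockout and 4.21 and 6.05 in GFP libraries. Tead1 and Tead4, with no start in the promoter table, each had peaks in all 4 libraries at 1 end of the gene span, at 6.82 and 5.36 in knockout and 5.15 and 6.79 in GFP libraries for Tead1, and at 5.58 and 3.83 in knockout and 5.56 and 5.95 in GFP libraries for Tead4. A further Tead4 peak near that end (chr6:128300128-128300353, at 4.15) was listed in GFP replicate 2 alone.

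Besides the Tead3 start, 4 regions inside the genes were listed in both libraries of 1 group and neither of the other. In Wwtr1, a region 105.28 kb from the start (chr3:57470476-57470720) had peaks in the knockout libraries (4.52 and 4.29) and in neither GFP library. The strongest Wwtr1 peak (chr3:57501723-57502094, at 6.97) was listed in GFP replicate 2 alone. In Tead4, a region in both knockout libraries (chr6:128275569-128275895, at 4.49 and 4.69) and one in both GFP libraries (chr6:128282089-128282773, at 5.20 and 5.51) lay in the same gene span. In Tead1, the region was GFP-listed (chr7:112823574-112824169, at 4.75 and 6.40). Requiring a −log10 q of at least 5 left neither of the knockout-listed regions and kept the GFP-listed ones. A region in Lats2 (chr14:57730156-57730355, at 3.76) was listed in knockout replicate 1 alone. When peaks had to overlap by 50% of the shorter, the Tead4 knockout peaks no longer formed 1 region. An Amotl2 region with peaks in all 4 libraries (chr9:102723992-102724585) then split into a GFP-listed part and a knockout-listed part. The strongest peak near any of the 10 genes was in Tead1 in GFP replicate 2, at 8.39, and its region (chr7:112797318-112798230) had peaks in all 4 libraries, at 4.64 and 5.24 in knockout and 6.33 in GFP replicate 1. Exons and introns were not annotated in the tables used here, so positions are given relative to gene spans.

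**Figure D4:**
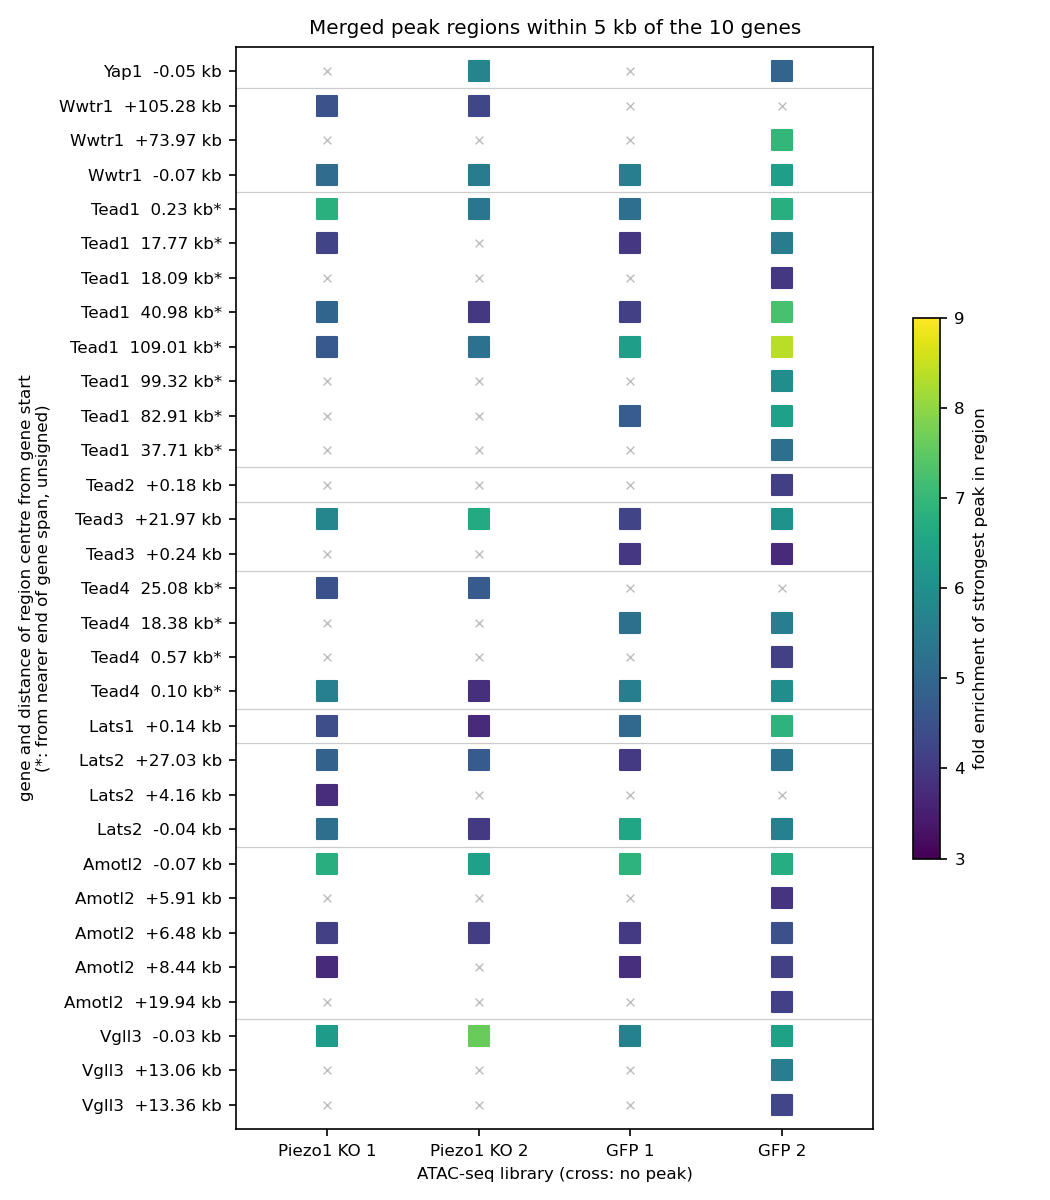
The 31 merged peak regions within 5 kb of the 10 genes (rows, with the distance of the centre from the gene start in kb, or for Tead1 and Tead4 from the nearer end of the span) in 2 Piezo1 knockout and 2 GFP control ATAC-seq libraries (columns). Colour gives the authors' fold enrichment of the strongest peak and a cross marks no listed peak. Of the 31 regions, 12 are filled in all 4 columns, 2 in both knockout columns and neither GFP column, and 3 in both GFP columns and neither knockout column.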

How the data were processed

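RNA-seq values are whole read counts by gene symbol, as the authors deposited them, and each ATAC-seq library has its own deposited peak list. The submitters' processing notes name STAR, HTSeq and DESeq2 for RNA-seq, Bowtie2 2.4.2 and MACS2 for ATAC-seq, Trim Galore 0.6.5 for both, and mm10. For other versions, annotation, strand setting, peak threshold and read shifting, the answer is not given in the sources used here. The cDNA came from a full-length single-cell amplification kit, per the labels' protocols, so reads need not be independent molecules. In the deposited peak lists, fold enrichment is a ratio to local background, and −log10 p and −log10 q are the authors' values.

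Counts were fitted over 15335 genes in edgeR 4.0.16 (R 4.3.3, TMM, filterByExpr, quasi-likelihood, two-sided, Benjamini-Hochberg), without a block. The SE is the absolute log2 fold change over the square root of F, and the 95% interval uses the t distribution. DESeq2 1.42.0, limma 3.58.1 voom, other scalings and filters, and left-out libraries were alternatives. The scripts were tested on simulated data. Peaks overlapping by 1 bp or more were merged. Members and lists were chosen with earlier results of these data known. Named list genes are those called, plus Ccn1, Ccn2 and Ankrd1. Gene spans and starts come from RefSeq tables of GRCm38.p6 (mm10). All 10 genes matched by symbol. Tead shares were planned per transcript length, and transcript lengths were not used here, so they are shares of counts.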

Additional observations from a re-analysis of the deposited data

How the results depend on the processing

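Without a paired design in the labels, the fit with the replicate number as a block is an alternative only. Deviations of same-numbered libraries correlated at 0.028, 0.208 and 0.094 for numbers 1 to 3, not all over 0.1, and strain replicate 1 correlated best with control replicate 3 (0.091). With the replicate block 1557 genes were higher and 1619 lower, and 1 of the 10 genes was called higher, Lats2 (log2 fold change 0.43, adjusted p = 0.0133). Among the 15335 genes the fit without the block gave 911 higher and 1134 lower, 44.5% of calls higher; with library size alone it was 55.6% (1169 and 935). With no filter on low counts 1428 were higher and 1574 lower, and with control replicate 3 and strain replicate 1 left out together 1512 and 1614. With 1 library left out, 369 to 1085 were higher and 577 to 1244 lower.

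Of the 10 pathway genes, 0 to 1 were called higher and 0 lower with 1 library left out, and 1 higher with no filter on low counts, again Lats2. Tead2 turned to 0.014 with library size alone. Vgll3 ranged over −0.016 to 0.12 with 1 library left out, negative without control replicate 3, and was −0.015 with strain replicate 1 left out as well. The cause was not tested. Of the target signature, 0 to 5 rose and 1 to 4 fell with 1 library left out. Over the 4 other lists together, 1 rose and 1 fell, with 0 to 7 and 0 to 2 when 1 library was left out. There were 2 higher with library size alone, and 5 higher and 2 lower by the DESeq2 test. That test called 1291 higher and 1491 lower over all genes.

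Regions near the genes numbered 31, and 14 with peaks of −log10 q of at least 10. Those in both knockout libraries and neither GFP library numbered 2, and 0 at a −log10 q of at least 5. The other windows, overlaps and thresholds kept the 3 region counts within 1.5 times. With the stricter overlap the knockout-listed regions were not the same ones, since part of an Amotl2 region took the place of the Tead4 region. With 2 ATAC-seq libraries a group, the peak lists, which carry no depth, allow no test.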
